A study of Ovis aries with 2 samples.

Results

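Genes of dividing cells and an inhibitor of division were followed through every cell class of an implanted vascular graft and of a native artery in sheep. TOP2A, CENPF, TPX2, UBE2C, SGO1, STMN1 and CDKN1C were picked by gene symbol, and each matched exactly 1 row in both count matrices, giving 7 of 21890 genes. The graft library was titled H2R5-ATEV, and the native library came from a carotid artery by its source and description although its title names the aorta. Both tissues were explanted after 12 weeks from sheep aged 1 to 2 years, and no label says how many animals were used. Cells were freed by 20 minutes of enzyme digestion from the clamped lumen, after which red blood cells were lysed. Grafts of this type are known to hold no cells when implanted. There was 1 library of each tissue, so no test between them was possible, every difference describes these 2 libraries, and intervals (95%) cover counting error only.

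The proliferation genes act at different steps of division. TOP2A encodes the topoisomerase that untangles replicated DNA, CENPF a kinetochore protein, TPX2 a spindle assembly factor that activates Aurora A, UBE2C the ubiquitin-conjugating enzyme of the anaphase-promoting complex, and SGO1 shugoshin, the guardian of cohesion at the centromere. STMN1 encodes stathmin, which destabilises microtubules and is abundant in dividing cells but is not restricted to them. CDKN1C encodes p57, an inhibitor of cyclin-dependent kinases that restrains entry into the cycle and is an imprinted gene in human and mouse. Cells of a healthy artery wall divide rarely, while a cell-free graft is populated by cells of the host.

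After filtering, 912 graft barcodes with a median of 26085.5 UMIs (unique molecular identifiers, counted transcripts) and 6307 native barcodes with a median of 3847 UMIs had at least 1000 UMIs and were used. Because depth differed so much, shares of barcodes were compared after each barcode had been thinned to 1000 or to 5000 UMIs. Levels are CPM, the UMIs of a gene as a share of all UMIs of a class scaled to a total of 1000000, and were compared between classes for the same gene. Barcodes were assigned to a class by their own markers, and class names stand for marker-defined, for example endothelial-like, barcodes. In the graft, 199 barcodes were endothelial, 104 smooth muscle, 84 fibroblast, 323 macrophage and 52 T or NK, and 141 had no class. In the native artery these numbers were 2965, 45, 956, 627, 475 and 1226. A further 9 graft and 13 native B or plasma barcodes were too few to describe. Each used marker was at least 2-fold above the other barcodes of its library, except CASQ2 among the 12 smooth muscle markers, which was at 0 in native smooth muscle barcodes. Of the 84 graft fibroblast-marker barcodes, 58 fell into a cluster of smooth muscle character when barcodes were clustered, so this class is not uniform. The libraries had 7 barcode sequences in common, of which 5 graft and 2 native ones were used.

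Proliferation transcripts were far higher in graft endothelium than in native endothelium. All 6 genes were at least 2-fold higher there, where 15.3% of the 14819 genes with at least 10 UMIs over both libraries were, and the median log2 ratio of the 6 was 2.68 against -0.02 over those genes (log2 values after adding 5 CPM). TOP2A stood at 171 CPM (163 to 180) in graft and 6.88 CPM (5.65 to 8.29) in native endothelial barcodes, a 24.9-fold difference (20.5 to 30.5). CENPF reached 167 CPM in graft and 5.11 CPM in native barcodes, 32.8-fold (26.2 to 41.5). In the artery, 51 of its 81 endothelial UMIs came from 1 barcode, and without the top 2 barcodes of each library the ratio was 56.1.

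The later mitotic regulators followed in the same direction. UBE2C had 370 UMIs in graft endothelium (38.8 CPM) and 7 UMIs in native endothelium (0.44 CPM), a ratio of 87.8 (42.2 to 220). SGO1 was lower in level but also differed, at 11.6 CPM in graft and 1.39 CPM in native endothelial barcodes (8.38-fold, 5.27 to 13.9). TPX2 had the smallest ratio, 4.38 (3.79 to 5.08), from 70.2 CPM in the graft and 16.02 CPM in native barcodes. Native TPX2 was spread thinly over many barcodes. At 5000 UMIs and over barcodes of all classes, 50 of 96 graft TPX2-positive barcodes (52.1%) and 149 of 202 native ones (73.8%) carried no UMI of TOP2A, CENPF, UBE2C or SGO1. UBE2C behaved differently from TPX2: again over all classes, no graft UBE2C-positive barcode of 35 and 4 of 36 native ones (11.1%) lacked the other 4 genes.

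**Figure D1:**
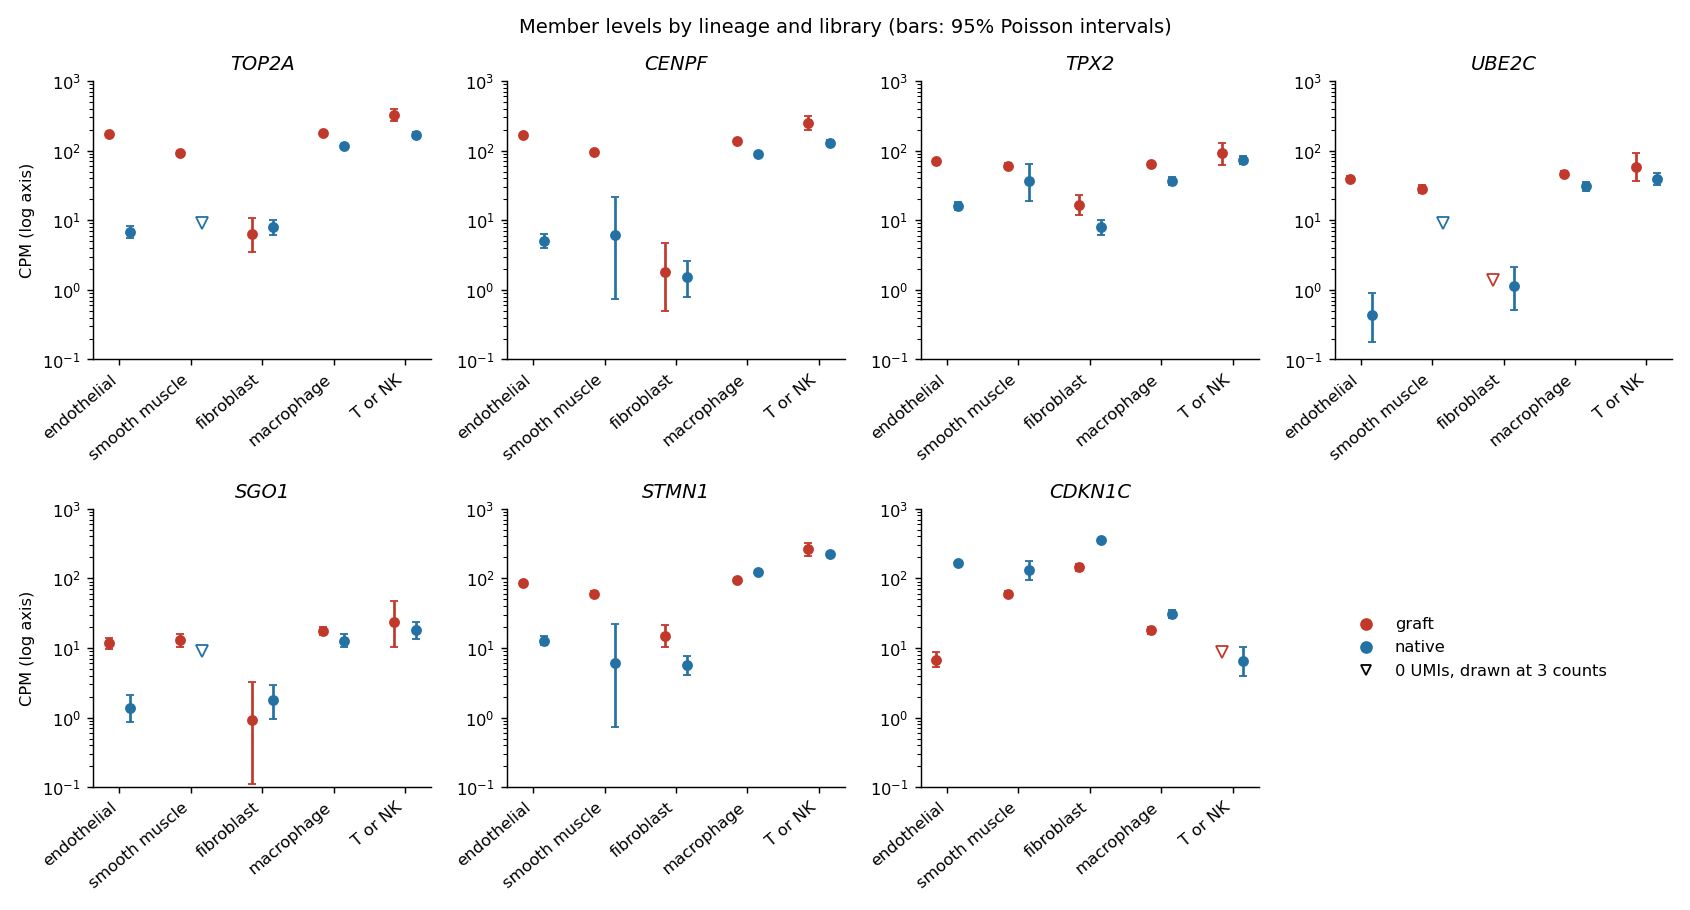
Level of each gene (CPM, log axis) by lineage in the graft (red) and native (blue) library, with 95% Poisson intervals; open triangles mark 0 UMIs and are drawn at the level of 3 counts. Endothelial TOP2A stands at 171 CPM in graft and 6.88 CPM in native barcodes, and endothelial CDKN1C at 6.81 CPM in graft and 167 CPM in native barcodes.

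These UMIs came from few endothelial barcodes. Of the 4383 graft endothelial UMIs of TOP2A, CENPF, TPX2, UBE2C and SGO1 together, called the 5 genes from here on, the top barcode held 920 and the top 2 held 38.4%. Native endothelium had 473 such UMIs, 70 of them in the top barcode. The summed level was 459 CPM in graft and 29.8 CPM in native endothelial barcodes, 15.4-fold (14.0 to 17.0), and 11.7-fold without the top 2 barcodes of each library. At 5000 UMIs the counts of the 5 genes per barcode had a gap in endothelium: no barcode of either library had 4, and 14 graft barcodes had 5 or more, up to 42, against 1 native barcode with 18. A barcode with at least 5 of these UMIs among 5000 is called cycling here, and the limit was placed in this gap after it had been seen. The gap was narrow, with 1 graft endothelial barcode at 3 UMIs and 2 at 5. The same limit was used in every class, but not every class had the gap. Barcodes with 4 UMIs numbered 1 in graft macrophages, 2 in native macrophages and 2 in native T or NK barcodes.

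**Figure D2:**
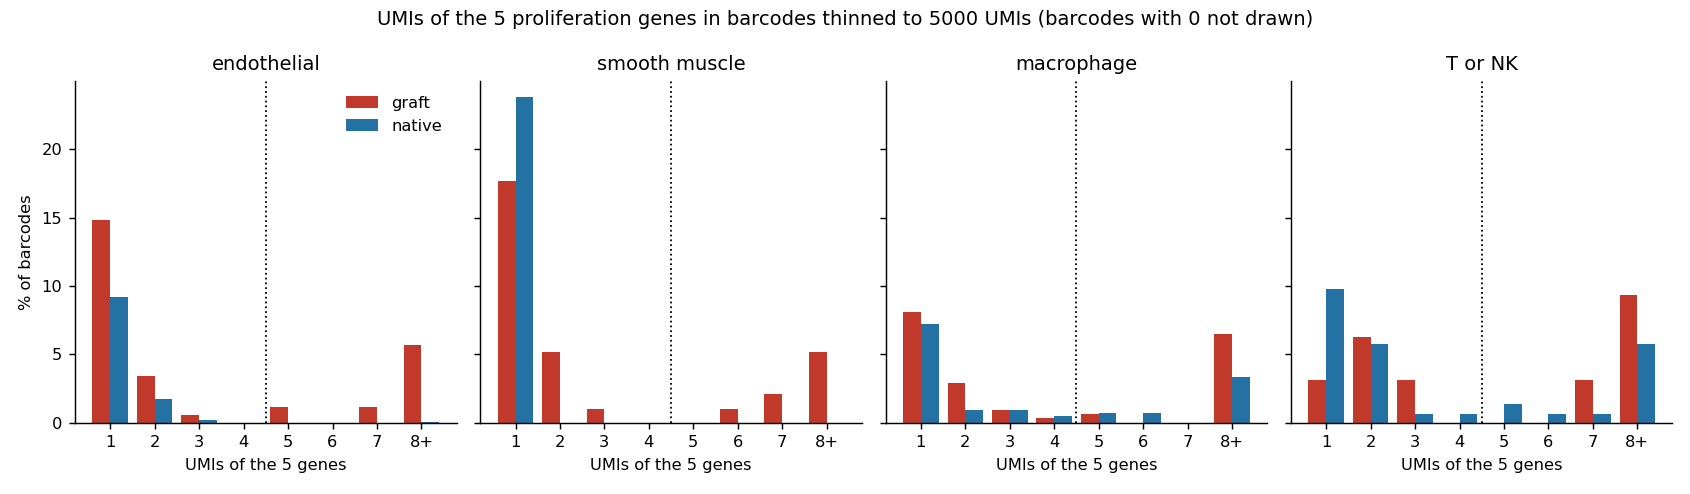
Share of barcodes (%) with 1 to 8 or more UMIs of the 5 genes after thinning to 5000 UMIs, for graft (red) and native (blue) barcodes of 4 lineages; the dotted line marks the limit of 5. Above the line lie 14 of 175 graft and 1 of 1192 native endothelial barcodes.

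By this measure 8.0% of graft endothelial barcodes (14 of 175, 4.44 to 13.1%) and 0.084% of native ones (1 of 1192, 0.002 to 0.467%) were cycling, a difference of 7.92 points (4.72 to 12.9). With 2 or more UMIs among 1000 as the criterion, 9 of 199 graft (4.52%) and 3 of 2965 native endothelial barcodes (0.101%) qualified, a difference of 4.42 points (2.29 to 8.27). All 14 graft barcodes lay in the endothelial cluster that held most graft endothelium. The 1 native barcode carried 3.51 endothelial marker UMIs per 1000 but lay in a cluster that could not be named and was led by XCL1, IFNG and CTSW, genes of cytotoxic lymphocytes. Cycling graft endothelial barcodes were deep, with a median of 83577.5 UMIs against 38869 for the other graft endothelial barcodes, and the part of depth in their number was not tested. Outside the cycling barcodes, 161 graft barcodes had 65.6 CPM of the 5 genes and 1191 native ones 24.0 CPM, 2.74-fold (2.36 to 3.18). Cycling barcodes were picked by these same genes, so leaving them out lowers the levels by construction.

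Graft smooth muscle also carried dividing barcodes. The 5 genes summed to 290 CPM (277 to 303) in graft and 42.5 CPM (23.2 to 71.3) in native smooth muscle barcodes, 6.83-fold (4.06 to 12.5), with 14 native UMIs in all. Of the 6 proliferation genes 5 had a ratio past 2-fold, as did 25.6% of genes, a count that includes ratios over 0 native UMIs. With the whole interval required to lie above 2-fold the count was 4 of 6, where 2.59% of genes passed, and SGO1 dropped out. TOP2A had 614 UMIs in the graft (92.3 CPM) and 0 in the artery, 10.1-fold above a floor of 3 counts, with an interval from 8.23-fold upward. UBE2C, at 28.3 CPM in the graft and 0 UMIs in the artery, was 3.11-fold above that floor (interval from 2.50-fold upward). SGO1, at 12.9 CPM and 0 UMIs, was 1.42-fold above it (interval from 1.13-fold upward). CENPF had 636 graft and 2 native UMIs, a ratio of 15.8 (4.35 to 130). TPX2 was the exception at 61.0 CPM in graft and 36.4 CPM in native barcodes, a ratio of 1.68 with an interval of 0.95 to 3.27. Cycling barcodes numbered 8 of 96 in the graft (8.33%, 3.67 to 15.8%) and 0 of 21 in the artery, which allows a share of up to 16.1%. The native class was therefore too small to show a difference in shares, whose interval ran from -7.65 to 15.6 points.

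Macrophages cycled in both tissues. The 5 genes reached 443 CPM (432 to 455) in graft and 287 CPM (275 to 300) in native macrophages, 1.54-fold (1.47 to 1.62). Cycling barcodes made up 7.12% of graft macrophages (22 of 309, 4.52 to 10.6%) and 4.80% of native ones (20 of 417, 2.95 to 7.31%), a difference of 2.32 points whose interval (-1.12 to 6.13) includes 0. With 1000 UMIs the difference was 2.84 points (0.09 to 6.22), from 20 of 323 graft and 21 of 627 native barcodes. No proliferation gene passed 2-fold in macrophages, where 12.5% of genes were at least 2-fold higher in the graft. TOP2A was at 180 CPM in graft and 118 CPM in native macrophages, 1.52-fold (1.41 to 1.65). Of the cycling macrophages, 15 of 22 in the graft and 16 of 20 in the artery shared a cluster led by TOP2A, UBE2C and NUSAP1.

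T or NK barcodes were the native class with the highest proliferation level. The 5 genes stood at 754 CPM (665 to 853) in graft and 431 CPM (407 to 455) in native T or NK barcodes. The graft value rested on 2 barcodes, which held 74.9% of its 255 UMIs, and without the top 2 barcodes of each library the ratio was 0.61 in place of 1.75, so no direction is given. None of the 6 genes passed 2-fold with these barcodes included, where 8.43% of genes did. Cycling barcodes numbered 4 of 32 in the graft (12.5%, 3.51 to 29.0%) and 25 of 296 in the artery (8.45%, 5.54 to 12.2%), and the interval of the difference (-4.35 to 19.8 points) includes 0.

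Summed over the 5 genes, fibroblasts had the lowest level in either library, but in the artery the order depended on gene and weighting. TOP2A, UBE2C and SGO1 were higher in native fibroblasts (7.93, 1.13 and 1.76 CPM) than in native endothelium (6.88, 0.44 and 1.39 CPM), with overlapping intervals. With equal weight per barcode the 5 genes were at 32.0 CPM in native fibroblasts, 30.5 CPM in native endothelium and 28.3 CPM in native smooth muscle. The 5 genes reached 25.9 CPM (19.6 to 33.6) in graft and 20.3 CPM (17.3 to 23.7) in native fibroblasts. At 5000 UMIs no barcode cycled among 80 in the graft and 554 in the artery, which allows shares of up to 4.51% and 0.664%. With 2 or more UMIs among 1000 as the criterion, 0 of 84 graft fibroblasts and 6 of 956 native ones (0.628%, 0.231 to 1.36%) qualified. TPX2 (2.12) and STMN1 (2.65) had ratios past 2-fold, 2 of the 5 proliferation genes with enough UMIs, as did 12.1% of genes, but 0 of 5 had an interval wholly above 2-fold, where 6.49% of genes did. Both turned direction under other settings. The log2 ratio of TPX2 was -0.24 with lineages from clusters and -1.81 from thinned sums, and that of STMN1 -0.94 with equal weight per barcode and -0.98 from thinned sums. For STMN1, 17 of its 33 graft UMIs came from 1 barcode, and the ratio of 2.65 was 1.17 without the top 2 barcodes of each library.

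Over all barcodes of 5000 UMIs, cycling ones made up 6.27% of the graft (49 of 782, 4.67 to 8.20%) and 2.17% of the artery (58 of 2674, 1.65 to 2.80%). Their makeup differed. The graft held 14 endothelial, 8 smooth muscle, 22 macrophage and 4 T or NK cycling barcodes and 1 with no class, while the artery held 1 endothelial, 20 macrophage and 25 T or NK ones and 12 with no class, 11 of which lay in a T or NK-like cluster.

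Summed STMN1 was highest in T or NK barcodes and macrophages, and within classes it followed division. Its level was highest in T or NK barcodes, at 263 CPM (211 to 324) in the graft and 223 CPM (206 to 241) in the artery, whose intervals overlap. Macrophages came next, at 95.6 CPM in graft and 123 CPM in native barcodes, a ratio of 0.78 (0.71 to 0.85) that is short of 2-fold. In endothelium it was higher in the graft, at 85.3 CPM (79.6 to 91.4) against 12.7 CPM in native barcodes, 6.70-fold (5.73 to 7.85). The interval of graft endothelium overlaps that of graft macrophages (90.3 to 101 CPM). As a log2 ratio with 5 CPM added, the endothelial difference was 2.35, and 1.32 with equal weight per barcode. Over 11 other settings this ratio ran from 0.58 to 3.14. Among barcodes with no UMI of the 5 genes at 5000 UMIs, STMN1 was at 28.8 CPM in 128 graft and 8.23 CPM in 1058 native endothelial barcodes, 3.50-fold (2.69 to 4.60). The other mitosis genes summed to 143 CPM in these graft and 64.6 CPM in these native barcodes. Whether dividing cells remained among them was not tested. Within the graft, cycling endothelial barcodes had 371 CPM of STMN1 and barcodes with none of the 5 genes 28.8 CPM, 12.9-fold (10.9 to 15.3). The same ratio was 8.78 in graft smooth muscle, 30.3 in graft macrophages, 51.7 in native macrophages and 19.1 in native T or NK barcodes. At full depth all 49 graft and all 58 native cycling barcodes carried STMN1, a gene that the criterion did not use. Their median depths were 64031 and 14352 UMIs, against 30422 and 9553.5 UMIs in the other barcodes. At 5000 UMIs, 111 of all 782 graft barcodes (14.2%) and 219 of all 2674 native ones (8.19%) held STMN1. The part of depth in the full-depth count was not tested.

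CDKN1C had the opposite order of classes. Its level was highest in native fibroblasts, at 358 CPM (345 to 371). Native endothelium followed at 167 CPM (160 to 173), then graft fibroblasts at 145 CPM (130 to 162) and native smooth muscle at 130 CPM (94.4 to 176), and the intervals of these neighbours overlap. Graft smooth muscle was at 59.99 CPM (54.2 to 66.2), native macrophages at 31.1 CPM (27.1 to 35.5) and graft macrophages at 17.8 CPM (15.6 to 20.3), each apart from the next. At the lower end graft endothelium had 6.81 CPM (5.26 to 8.68) and native T or NK barcodes 6.56 CPM (3.95 to 10.2), which cannot be separated. Graft T or NK barcodes had 0 UMIs, which allows up to 10.9 CPM.

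In graft endothelium CDKN1C was 24.5-fold lower than in native endothelium (19.1 to 31.8), with 65 UMIs in graft and 2642 UMIs in native barcodes. It was at least 2-fold lower, as were 17.3% of genes. At 1000 UMIs, 3 of 199 graft endothelial barcodes (1.51%, 0.312 to 4.34%) and 418 of 2965 native ones (14.1%, 12.9 to 15.4%) held a CDKN1C UMI, a difference of -12.6 points (-14.2 to -9.51). At 5000 UMIs the shares were 5.71% (10 of 175) in the graft and 45.9% (547 of 1192) in the artery. T or NK barcodes, which are not known for CDKN1C, had a UMI in 0 of 52 graft and 3 of 475 native barcodes (0.632%) at 1000 UMIs, with median depths of 5975 and 5727 UMIs against 33318 and 3803 UMIs in graft and native endothelium. The graft endothelial share lies above the native T or NK share and below a floor of 3 counts in 52 (5.77%), so background and expression cannot be told apart at this level.

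The lower level in graft endothelium was also measured outside its cycling barcodes. Among endothelial barcodes with no UMI of the 5 genes, CDKN1C was at 8.42 CPM in 128 graft and 175 CPM in 1058 native barcodes, 20.8-fold lower in the graft (15.8 to 28.0). In the other stromal classes CDKN1C was lower in the graft by smaller factors. Fibroblasts had 145 CPM in graft and 358 CPM in native barcodes, 2.47-fold lower (2.196 to 2.78), where 19.1% of genes were at least 2-fold lower. With lineages taken from clusters this fibroblast ratio turned direction (log2 ratio 0.051 in place of -1.27), with 58 of the 84 graft barcodes then counted as smooth muscle. Smooth muscle had 59.99 CPM in graft and 130 CPM in native barcodes, 2.17-fold lower (1.55 to 2.98), where 16.5% of genes were. The macrophage ratio was 1.74-fold lower (1.44 to 2.11), short of 2-fold, which 10.7% of genes passed. For T or NK barcodes, where 13.9% of genes were lower, the native level lay under a graft floor of 3 counts (8.87 CPM) and no fold is given.

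**Figure D3:**
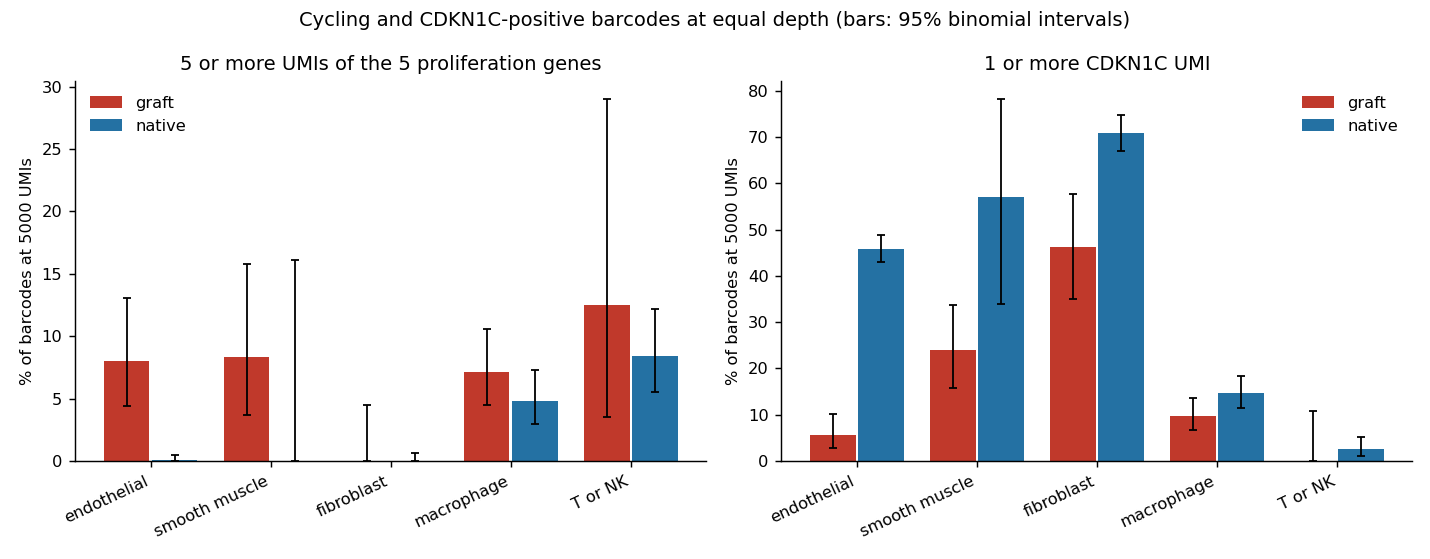
Share of barcodes (%) at 5000 UMIs that were cycling (left) and that held a CDKN1C UMI (right), by lineage, for graft (red) and native (blue) barcodes with 95% binomial intervals. Graft endothelium has 8.0% cycling and 5.71% CDKN1C-positive barcodes, native endothelium 0.084% and 45.9%.

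Across the 10 combinations of library and lineage the levels ran in opposite order. Spearman's rho between CDKN1C and the summed 5 genes was -0.94, and Pearson's r on log2 values -0.94. These 10 points come from 2 libraries, share their depth and free RNA within each library, and divide into CDKN1C-rich stromal classes with few cycling barcodes and CDKN1C-poor classes with many, so the value is a description. Graft endothelium lay beside the macrophage and T or NK classes, and graft smooth muscle, at 290 CPM of the 5 genes, at the level of native macrophages (287 CPM).

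**Figure D4:**
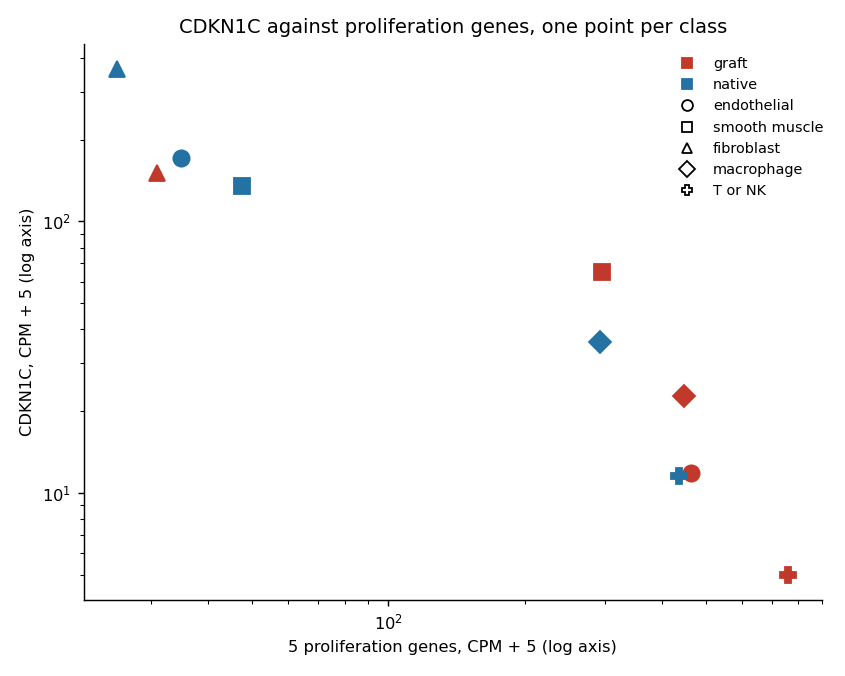
CDKN1C level against the summed level of the 5 genes (CPM with 5 added, both axes log) for 5 lineages in the graft (red) and the native artery (blue). Graft endothelium (459 CPM of the 5 genes, 6.81 CPM of CDKN1C) lies with the T or NK and macrophage points, and native endothelium (29.8 CPM and 167 CPM) with the fibroblasts.

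Within barcodes the answer depended on how many proliferation UMIs were asked for. For single UMIs of the 5 genes the direction differed between classes and settings. In native endothelium at 1000 UMIs, 19 of 92 barcodes with any such UMI (20.7%, 12.9 to 30.4%) and 399 of 2873 without one (13.9%) held CDKN1C, a difference of 6.76 points (-0.37 to 16.2). Barcodes with both therefore existed, and the product of the separate shares would give 12.97 of them. At 5000 UMIs the shares were 51.5% (69 of 134) with and 45.2% (478 of 1058) without, a difference of 6.31 points (-2.60 to 15.1). A second random draw of 5000 UMIs gave a difference of -6.75 points (-15.5 to 2.60), so the sign depended on the draw. Leaving out TPX2 gave 16 of 52 (30.8%) with and 402 of 2913 (13.8%) without at 1000 UMIs, a difference of 16.97 points whose interval (6.04 to 30.5) lies above 0. At 5000 UMIs it gave 26 of 54 (48.1%) and 521 of 1138 (45.8%), a difference of 2.37 points (-10.7 to 15.7). In native fibroblasts, 24 of 36 barcodes with any of these UMIs (66.7%) and 369 of 518 without (71.2%) held CDKN1C at 5000 UMIs. Of the graft classes, 3 pointed to less CDKN1C in barcodes with these UMIs at 5000 UMIs, but at 1000 UMIs 2 of them had the opposite sign. At 1000 UMIs graft endothelium had 1 of 18 with and 2 of 181 without (4.45 points, -0.93 to 24.7). Graft smooth muscle had 1 of 13 and 6 of 91 (1.10 points, -8.37 to 27.0), and graft macrophages 0 of 34 and 8 of 289 (-2.77 points, -5.37 to 7.47). At 5000 UMIs, graft endothelium had 0 of 47 with and 10 of 128 without, a difference of -7.81 points (-13.8 to 0.52), and graft smooth muscle 6 of 31 and 17 of 65 (-6.80 points, -22.4 to 12.4). Graft macrophages had 4 of 60 and 26 of 249 (-3.78 points, -9.76 to 6.03), and without TPX2 0 of 47 and 30 of 262, a difference of -11.5 points whose interval (-15.9 to -3.20) lies below 0. In graft fibroblasts the sign was the opposite, at 6 of 9 and 31 of 71 (23.0 points, -10.3 to 46.9).

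Cycling barcodes, in contrast, rarely held CDKN1C. At 5000 UMIs, 0 of 49 cycling graft barcodes (allowing up to 7.25% by the exact interval) and 99 of 620 graft barcodes with none of the 5 genes (15.97%) were CDKN1C-positive, a difference of -15.97 points (-19.1 to -8.22). In the artery these were 3 of 58 (5.17%, 1.08 to 14.4%) and 942 of 2322 (40.6%), a difference of -35.4 points (-39.3 to -26.2). These totals mix lineages, and native endothelium and fibroblasts, rich in CDKN1C, held 1 and 0 of the cycling barcodes. Within a lineage the shares pointed the same way in 5 classes, but each interval of the difference included 0. They were 0 of 14 cycling and 10 of 128 other barcodes in graft endothelium, 0 of 8 and 17 of 65 in graft smooth muscle, 0 of 22 and 26 of 249 in graft macrophages, 1 of 20 and 52 of 357 in native macrophages, and 0 of 25 and 7 of 221 in native T or NK barcodes. The 1 cycling barcode of native endothelium held a CDKN1C UMI, so in that class exclusion could not be examined.

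Summed over all UMIs of the same barcodes, CDKN1C was lower in cycling barcodes of 4 classes but was not absent. Cycling barcodes were also deeper in these classes, with a median of 56822.5 UMIs against 30530 UMIs in the other graft macrophages. Over all graft macrophages CDKN1C was at 26.6 CPM with equal weight per barcode and 17.8 CPM summed. Equal weight gave the higher level in the rest of these classes too, and the part of depth in the ratios was not tested. Graft macrophages had 5.15 CPM (2.07 to 10.6) in cycling barcodes and 20.4 CPM (17.7 to 23.4) in those with none of the 5 genes, a ratio of 0.25 (0.10 to 0.53). Native macrophages had 9.40 CPM and 29.9 CPM, a ratio of 0.31 (0.08 to 0.82). In graft smooth muscle the levels were 32.8 CPM (22.5 to 46.4) and 59.8 CPM (52.7 to 67.6), a ratio of 0.55 (0.37 to 0.79). Graft endothelium had 1 UMI (0.66 CPM) in its cycling barcodes and 52 UMIs (8.42 CPM) in the others, a ratio of 0.08 (0.002 to 0.46) between low levels. In native T or NK barcodes the ratio of 0.55 had an interval of 0.01 to 3.86. At full depth 6 of 8 cycling graft smooth muscle barcodes carried CDKN1C, with up to 12 UMIs. Of these 8, 2 also carried 4.60 and 4.78 macrophage marker UMIs per 1000, against at most 0.133 in the other 6, and they held 18 of the 32 CDKN1C UMIs. The other 6 held 14 UMIs in 4 barcodes, 26.4 CPM. In all, 12 of 49 graft and 6 of 58 native cycling barcodes carried CDKN1C. None of these barcodes was found in both libraries. Transcripts of both kinds thus occurred in the same barcodes, and the part of free RNA or of a second cell in the droplet was not tested.

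**Figure D5:**
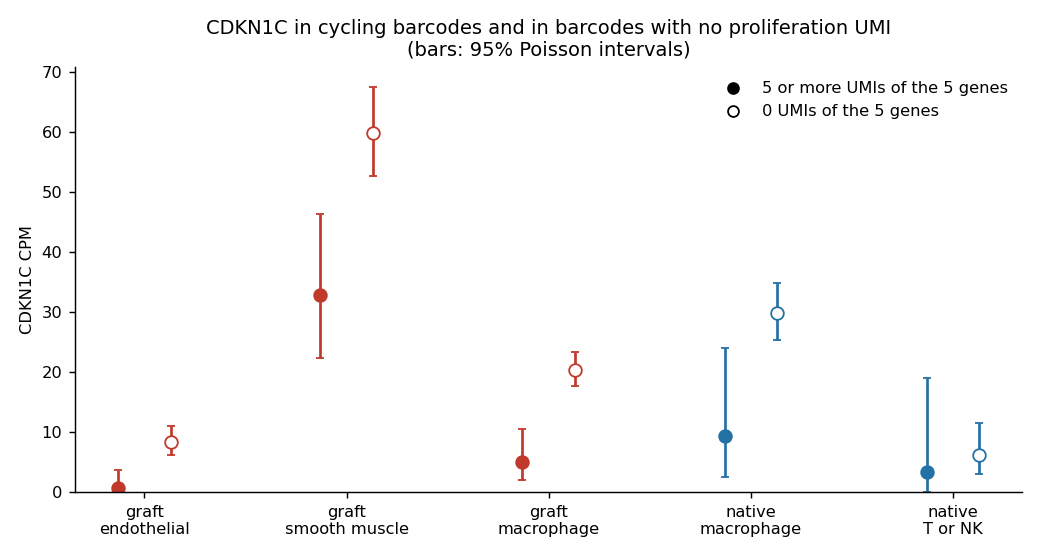
CDKN1C level (CPM) in cycling barcodes (filled) and in barcodes with no UMI of the 5 genes (open), by class, graft in red and native in blue, with 95% Poisson intervals. Graft smooth muscle has 32.8 CPM in cycling and 59.8 CPM in the other barcodes, and graft macrophages 5.15 CPM and 20.4 CPM.

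Pathway lists were set beside these genes, and their counts past 2-fold stand beside the share of all genes of that class. Of 24 other mitosis genes with enough UMIs, 23 were at least 2-fold higher in graft endothelium and 0 lower, with a median log2 ratio of 1.98, where 15.3% of genes were higher and 17.3% lower. CENPE, a kinetochore motor, had 65.6 CPM in graft and 0.69 CPM in native endothelial barcodes, and ANLN, a cleavage furrow protein, 61.8 CPM and 5.49 CPM. KIF23, a midzone kinesin, was 7.53-fold and BIRC5, or survivin, 2.80-fold higher. Of 19 DNA replication genes 14 were at least 2-fold higher and 0 lower (median 1.17), among them MCM7 (51.9 CPM in the graft, 20.2 CPM in the artery) and PCNA, the sliding clamp (45.3 CPM and 21.1 CPM). RRM1, a subunit of ribonucleotide reductase, had a ratio of 1.47, short of 2-fold. With the whole interval above 2-fold, 23 mitosis and 12 replication genes remained in endothelium. In smooth muscle 22 of 24 mitosis genes and 10 of 18 replication genes had ratios past 2-fold, where 25.6% of genes did, but 21 and 9 of these had 0 or 1 native UMIs. With the whole interval above 2-fold, 6 mitosis and 0 replication genes remained, where 2.59% of genes passed. CENPE and ANLN, with 297 and 545 graft UMIs, had 0 native UMIs. Macrophages had 10 of 24 mitosis genes and 0 of 19 replication genes at least 2-fold higher, and 1 replication gene lower, where 12.5% of genes were higher and 10.7% lower. With the whole interval above 2-fold, 3 of these mitosis genes remained. T or NK barcodes had 4 of 23 mitosis genes higher and 1 lower, and 1 of 19 replication genes higher and 4 lower, where 8.43% of genes were higher and 13.9% lower. With the whole interval past 2-fold, 0 of these remained in either direction. The graft level of the 5 genes in T or NK barcodes rested on 2 barcodes, so no direction is given here either. Fibroblasts had 3 of 13 mitosis genes higher and 2 lower, and 7 of 19 replication genes higher and 1 lower, where 12.1% of genes were higher and 19.1% lower. With the whole interval above 2-fold, 2 mitosis and 4 replication genes remained, where 6.49% of genes passed. The share of all genes under this stricter rule is given for smooth muscle and fibroblasts only.

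Of 18 other inhibitors and quiescence genes in endothelium, 5 were at least 2-fold higher in the graft and 5 lower, with a median log2 ratio of -0.26, where 15.3% of genes were higher and 17.3% lower. CDKN1A, which encodes the related inhibitor p21, was 12.8-fold higher (11.7 to 13.9), at 476 CPM in graft and 37.3 CPM in native barcodes. FOXO1, a transcription factor of quiescent endothelium, was 2.28-fold higher. KLF2, a factor induced by laminar flow, was 3.07-fold lower, at 183 CPM in graft and 562 CPM in native barcodes, and the growth arrest gene GAS6 2.43-fold lower. Among 12 genes of G1 progression 7 were higher and 1 lower, against the same 15.3% and 17.3%. The lower one was CCND2, a D-type cyclin, at 59.5 CPM in graft and 361 CPM in native barcodes (6.07-fold lower), while its relative CCND1 was 4.39-fold higher, at 299.9 CPM and 68.4 CPM. CDK6, a kinase partner of both, was 2.50-fold higher, and MYC, at a ratio of 1.18, was not called. Of 8 other imprinted growth genes 2 were higher and 3 lower, where those shares of all genes apply too. GRB10, a growth factor receptor adaptor, was 7.79-fold higher, at 468 CPM in graft and 60.1 CPM in native barcodes, and IGF2, a fetal growth factor, 2.50-fold lower. IGF2R, the receptor that clears IGF2, was 1.79-fold and MEST 1.96-fold lower, both short of 2-fold. Among 5 stathmin and tubulin genes 1 was higher and 1 lower, against the same 15.3% and 17.3% of all genes. The higher one was TUBB at 2.07-fold, whose interval (1.97 to 2.17) reached below 2-fold. TUBB4B, TUBA1A and TUBB6 had ratios of 0.98, 1.21 and 1.45. In smooth muscle CDKN1A was likewise higher, at 347 CPM in graft and 54.6 CPM in native barcodes, and of 18 inhibitors 2 were higher and 7 lower, where 25.6% of genes were higher and 16.5% lower.

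Genes with the most similar profile over the 10 classes were sought among 5879 with at least 50 CPM in a class. For CDKN1C these were SUGCT (Pearson r 0.98), ZNF354C (0.98), NAALADL2 (0.95), PRELP (0.95) and BMPR1A (0.94), each highest in native fibroblasts and lowest in graft T or NK barcodes. For the summed 5 genes they were CENPE (0.98), BIRC5 (0.97), KIF4A (0.97) and PCLAF (0.97).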

How the data were processed

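The authors deposited whole-number UMI counts per gene and barcode as filtered matrices, and the file headers name Cell Ranger 7.2.0. The genome build is not given in the sources used here. The graft file held 1229 barcodes and 36238351 UMIs, the native file 11371 and 43183715. Genes without a symbol held 18.8% and 22.7% of these UMIs. Barcodes with under 200 genes or over 20% mitochondrial UMIs were removed (143 and 266), then the highest Scrublet scores (scanpy 1.11.5) at 0.8% per 1000 barcodes (a further 12 and 1025). A lineage needed its marker list at 2 UMIs per 1000 and 2 times the next list. This limit, and leaving out CLEC3B, which endothelial barcodes carry too, were chosen after the data were seen, and the members and all lists were chosen with earlier results of these data known. EGFL7, ECSCR, C1QC, FCER1G, TYROBP, MS4A7, CD7 and CCL5 among the markers, and MKI67, CCNB1, RRM2, E2F4, BTG1, H19, MEG3, PEG3, PEG10, ZIM1, NNAT, TUBA1B and TUBA1C among the pathway lists, were not analysed here. Barcodes under 1000 UMIs (162 and 3773) were left out. From each list the 4 genes of highest mean CPM in endothelium are named, with CDKN1A in smooth muscle chosen after its values were seen, and CENPE and ANLN also for their 0 counts. Some genes that the rules name are not reported here. Shares carry Clopper-Pearson, differences Newcombe, CPM Poisson and ratios conditional binomial intervals. A gene was called past 2-fold with at least 10 UMIs over both libraries. The stricter count, with the whole interval past 2-fold, was added after the data were seen. Thinning drew each barcode with its own generator, a choice made after first results were seen. The code was tested on simulated data.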

Additional observations from a re-analysis of the deposited data

Results flagged for a closer look

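STMN1 had ratios of opposite sign in endothelium and macrophages, log2 values of graft over native (5 CPM added) of 2.35 and -0.35. The difference between these ratios was not tested, since each rests on 1 library per tissue. Barcodes under 1000 UMIs, which the comparisons left out, also carried these transcripts. CDKN1C stood at 28.5 CPM (3 UMIs) in such graft barcodes and 238 CPM in such native barcodes, and the 5 proliferation genes at 189.9 CPM (20 UMIs) in graft and 96.98 CPM in native ones. The native CDKN1C level exceeded the 165 CPM of the native barcodes used.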

How the results depend on the processing

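No paired analysis was possible because each tissue had 1 library and no replicate numbers to pair. Values below are log2 ratios of graft over native (5 CPM added) or percentage points. Of the alternatives for the results that answer a comparison, 89 stayed within the counting interval and 23 moved beyond it; for the values by gene and class these were 404 and 66, and 12 more changed sign where the main interval excluded 0. A further 24 sign changes fell in 7 results whose main interval included 0, all in T or NK barcodes or fibroblasts. Keeping CLEC3B, leaving out TPX2, removing the 2 top barcodes, lineages at 3 per 1000 or from thinned UMIs, and cycling at 10 of 5000 UMIs were chosen after the data were seen.

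The endothelial ratio of the 5 genes, 3.74, stayed positive: 5.03 with CLEC3B kept, 3.53 with STMN1 added, 4.39 without TPX2, 4.13 without barcodes holding other lineages' markers, 2.84 with equal weight per barcode, 3.90 with clusters, 3.25 with the mitosis list, 2.93 with thinned sums and 3.31 without the 2 top barcodes. That of CDKN1C, -3.86, was -3.50 with CLEC3B kept, -3.34 with equal weight and -3.00 with thinned sums. The lowest endothelial ratios over the settings were 0.58 for STMN1 and 0.74 for UBE2C, against 2.35 and 3.01 in the main setting. The endothelial difference in CDKN1C-positive shares was -7.09 points at 500 UMIs, -22.1 at 2000 and -38.8 at 5000. The cycling difference in endothelium was 10.04 points at 500 UMIs, and over all barcodes 4.67 with the mitosis list. The native endothelial difference in CDKN1C between barcodes with and without proliferation UMIs, 6.76, had no stable sign: -3.19 at 500 UMIs, -6.75 at 5000, -2.66 with CLEC3B kept, 16.97 without TPX2, -13.9 at 2 or more UMIs (0 of 3 barcodes) and -1.23 with the mitosis list. Values at 5000 UMIs in this paragraph are from the second draw, and the first draw gave 6.31 points for this last difference.

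The 12 were as follows, and the cause was not tested. With clusters, CDKN1C in fibroblasts was 0.051, TPX2 in fibroblasts -0.24, CENPF in T or NK barcodes -0.072 and the 5 genes there -0.017. Without the 2 top barcodes, T or NK values were -0.050 for CENPF, -0.89 for TOP2A and -0.69 for the 5 genes. With equal weight, STMN1 in fibroblasts was -0.94 and UBE2C in macrophages -0.056. With thinned sums, STMN1 and TPX2 in fibroblasts were -0.98 and -1.81, and UBE2C in macrophages -0.094. CDKN1C in cycling over other barcodes was negative in each of the 13 settings computed in graft endothelium, smooth muscle and macrophages and in native macrophages. All of these settings summed UMIs at full depth. Shallow native barcodes limit shares: 2674 of 6307 reached 5000 UMIs.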
